A study of Mus musculus with 16 samples.

Results

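The response of antigen-experienced TCF1+CD8+ T cells to renewed engagement of the T cell receptor (TCR) and CD28 was followed over 4 h in cells that received no prostaglandin E2 (PGE2). The comparison uses 8 of the 16 RNA-seq samples of the series, chosen by their labels, and 14205 of the 54532 genes of the count table, which are those that passed a filter on low counts. The cells came from the spleens of C57BL/6J mice as naive CD8+ T cells and were cultured for 4 days in low-dose IL-2 with repeated rounds of beads coated with anti-CD3 and anti-CD28 antibodies, a regimen meant to leave the cells with TCF1, the transcription factor of stem-like T cells encoded by *Tcf7*. Both groups then went through the 1-h preincubation step with 0 ng/ml PGE2 and spent 4 h in IL-2 at 85 U/ml. In the 4 stimulated samples fresh beads were present during these 4 h at 1 bead per cell, and in the 4 unstimulated samples they were not. The unstimulated cells were therefore neither naive nor deprived of cytokine, and they had met beads before. All cells were wild type as far as the labels say, and the beads stand in for antigen-presenting cells, which were not added. What samples with the same replicate number share, and whether they came from separate mice or cultures, is not given in the sources used here, so p-values measure only the spread between these samples.

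T cells read antigen through the TCR and CD3 chains, which recruit the kinases LCK and ZAP70 and activate the calcium-NFAT, RAS-MAPK-AP-1 and NF-κB pathways. CD28 adds a costimulatory signal that raises IL-2 production, survival and metabolic activity. In CD8+ T cells that have met antigen before, this signal is known to switch on genes for cytokines, chemokines and cytolytic proteins within hours, and to lower genes of the stem-like and circulating state such as *Tcf7*, *Klf2* and *S1pr1*. Growth begins with MYC, which drives genes for ribosome assembly, nutrient uptake and nucleotide synthesis.

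Summed counts per sample were 22678254 to 33537827 in unstimulated and 24536527 to 42950763 in stimulated cells, and the spread between replicates exceeded counting error (chi-square 8.72 to 36.6 times its degrees of freedom). All 11 CD8+ T cell markers were at 1 CPM (the counts of a gene scaled to a common library total) or more. The 3 CD4+ T cell markers summed to 26.5 to 34.5 CPM in unstimulated and 16.9 to 21.8 CPM in stimulated samples. Most of this was *Zbtb7b*, with a mean of 23.9 CPM without and 14.7 CPM with beads, and *Foxp3*, with 5.85 and 4.17 CPM, while *Cd4* itself was at 0.350 and 0.361 CPM. The 10 myeloid markers summed to at most 1.1 CPM with 4 of them at 0 in all samples, and the 5 natural killer cell markers to at most 0.396 CPM. The B cell markers summed to 12.0 to 22.2 CPM in unstimulated and 4.87 to 12.3 CPM in stimulated samples, most of it *Cd79b*. *Ms4a1* was at 0.820 CPM in unstimulated replicate 3 and 0.902 CPM in stimulated replicate 3, and at most 0.0892 CPM in the other 6 samples. The part of these cells in the results was not tested beyond the fit without both samples numbered 3. The dendritic cell markers summed to 2.76 to 6.12 CPM without and 11.3 to 16.3 CPM with beads, carried by *Zbtb46* and *Xcr1*, with *Siglech* at 0 and *Clec9a* and *Flt3* near 0. In bulk samples such as these, fewer cells of a type and less RNA per cell cannot be told apart, and CPM values are relative to the total of each library. Unless stated, levels are CPM with library sizes scaled by TMM, given as mean ± SD over 4 replicates. Changes are of stimulated against unstimulated cells on the log2 scale, given as the value or as the value ± standard error (SE). This SE was derived from the edgeR F test, as the size of the change divided by the square root of F. It is approximate and can be smaller for a difference of responses than for either response, as it was for *Ccl3* and *Csf2* with and without PGE2.

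At an adjusted p below 0.05 and a change of at least 2-fold, 3301 genes (23.2% of those tested) were differentially expressed genes (DEGs) by the quasi-likelihood test of edgeR. Of these, 1640 were higher (11.5%) and 1661 lower (11.7%). Without the fold change threshold, 9440 genes passed, 4496 higher and 4944 lower. On log2(FPKM + 1) values, where FPKM is the deposited level per gene length, limma called 1032 genes higher and 573 lower, so 64.3% of the DEGs were higher there against 49.7% in the counts. Rises reached further than falls. A log2 fold change of at least 3 was seen for 116 of the higher DEGs, and one of −3 or less for 13 of the lower DEGs. The higher DEGs held 5.63% to 6.65% of all counts in unstimulated samples and 15.4% to 18.1% in stimulated ones, while the share of the lower DEGs went from 8.15% to 9.22% down to 2.68% to 3.45%. Lower DEGs were mostly genes of modest level, with a median of 6.28 CPM over both groups, against 22.9 CPM for the higher DEGs and 21.7 CPM for all genes tested. The 4 unstimulated and 4 stimulated values did not overlap for 3168 of the 3301 DEGs, beside 8744 of all 14205 genes tested (61.6%).

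**Figure D1:**
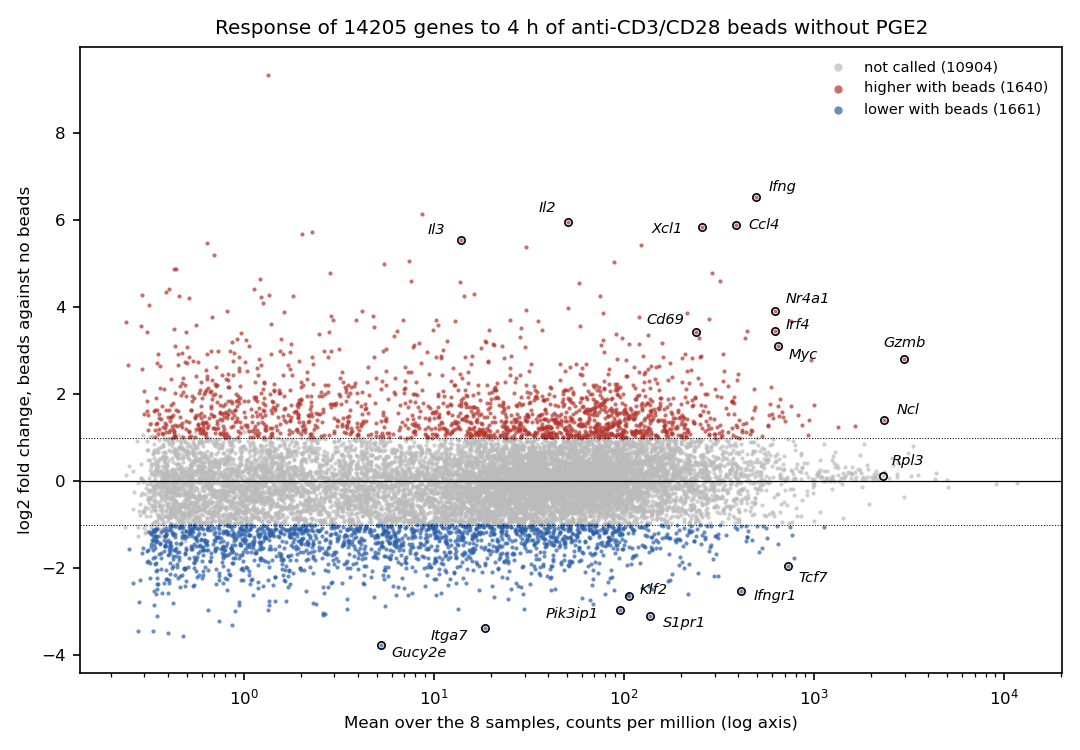
Each point is 1 of the 14205 genes tested. The x axis gives its mean over the 8 samples in CPM on a log axis and the y axis its log2 fold change with beads. Red points are the 1640 higher and blue points the 1661 lower DEGs, grey points the other genes, and dotted lines mark log2 fold changes of 1 and −1. *Ifng*, *Il2*, *Ccl4* and *Xcl1* lie at the top, *Gzmb* and *Ncl* at high level to the right, and *Gucy2e*, *Itga7* and *S1pr1* at the bottom.

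The size of the response differed between replicate numbers. Over the 1640 higher DEGs, the median difference in log2 CPM between the stimulated and unstimulated samples of the same number was 1.72 for number 1, 1.59 for number 2, 1.45 for number 3 and 1.21 for number 4. Over the 1661 lower DEGs these medians were −1.52, −1.48, −1.32 and −1.13. Unstimulated replicate 4 was the highest of its group for 47.8% of the higher DEGs, and stimulated replicate 4 the lowest of its group for 61.2%. For *Il2* this meant a 368.5-fold difference within number 1 and a 14.4-fold difference within number 4. The unstimulated value of number 1 rested on 10 counts, so its fold is imprecise. Leaving out both samples of a number, an alternative chosen after seeing the data, gave 1573 higher and 1522 lower DEGs without number 1, 1575 and 1560 without number 2, 1621 and 1713 without number 3, and 1835 and 1812 without number 4. Of the 89 named DEGs, 88 were still DEGs without number 1, and 89 without each of the others. Many of them were named for large changes without overlap in these same samples. Their retention was thus favoured in advance and does not speak for the other DEGs.

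Upstream sequence is shown for the 3 strongest rises, among them *Il2*, the classical target of TCR and CD28 signals, and for the 3 strongest falls that have an entry in the RefSeq promoter table used here (build GRCm38.p6, 32851 promoters). Of the 103 genes named by rule, 81 matched an entry by symbol, and *AC153498.1*, *Ccl4*, *Itga7*, *S1pr1*, *Bambi-ps1* and *Fbxo32* did not. Each line holds the 200 bases before the start annotated in the promoter table, 5′ to 3′ on the gene's strand. For *Pik3ip1* and *Mettl7a1* the gene span in the count annotation starts earlier, at 3330401 and 100304140. Their windows thus lie wholly within that span. Capitals mark matches on either strand to the NFAT core GGAAA, the AP-1 site TGANTCA, the cAMP response element TGACGTCA, the TATA box TATAAA, the E-box CACGTG and the FOXO site TGTTTAC.
*Ifng* (chr10:118440846-118441045, plus strand): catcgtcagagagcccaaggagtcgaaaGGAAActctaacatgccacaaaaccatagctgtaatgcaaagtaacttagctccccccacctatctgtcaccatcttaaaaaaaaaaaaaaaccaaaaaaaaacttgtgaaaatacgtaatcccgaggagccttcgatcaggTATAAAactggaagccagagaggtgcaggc
*Il2* (chr3:37125955-37126154, minus strand): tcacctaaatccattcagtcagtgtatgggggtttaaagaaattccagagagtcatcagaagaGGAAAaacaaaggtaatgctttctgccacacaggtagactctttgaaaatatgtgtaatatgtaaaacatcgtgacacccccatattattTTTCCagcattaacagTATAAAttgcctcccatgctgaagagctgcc
*Xcl1* (chr1:164935523-164935722, minus strand): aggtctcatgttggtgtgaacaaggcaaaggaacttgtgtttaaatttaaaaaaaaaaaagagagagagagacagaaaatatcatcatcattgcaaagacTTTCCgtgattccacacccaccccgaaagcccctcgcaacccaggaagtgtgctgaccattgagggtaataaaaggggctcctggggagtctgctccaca
*Gucy2e* (chr11:69237023-69237222, minus strand): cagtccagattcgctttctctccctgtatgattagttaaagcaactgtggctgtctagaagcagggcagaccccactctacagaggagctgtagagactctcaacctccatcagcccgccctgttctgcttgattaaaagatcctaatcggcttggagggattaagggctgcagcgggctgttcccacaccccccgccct
*Pik3ip1* (chr11:3330531-3330730, plus strand): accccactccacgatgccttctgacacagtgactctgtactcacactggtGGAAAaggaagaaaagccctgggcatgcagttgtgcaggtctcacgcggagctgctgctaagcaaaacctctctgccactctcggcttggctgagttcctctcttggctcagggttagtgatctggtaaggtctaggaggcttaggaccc
*Mettl7a1* (chr15:100304617-100304816, plus strand): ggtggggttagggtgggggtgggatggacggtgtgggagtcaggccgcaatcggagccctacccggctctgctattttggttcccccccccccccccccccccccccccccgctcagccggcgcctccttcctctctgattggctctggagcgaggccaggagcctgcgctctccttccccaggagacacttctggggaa
In these windows *Il2* held 2 NFAT cores, which began 137 and 47 bases before the start, and a TATA box 31 bases before it. *Ifng* held 1 NFAT core at 172 bases and a TATA box at 30 bases, and *Xcl1* 1 NFAT core at 100 bases. *Pik3ip1* also held an NFAT core, at 150 bases, and *Gucy2e* and *Mettl7a1* held none of the 6 motifs. Over all 32851 promoters of the table, counted in windows of 300 bases, 61.3% held the NFAT core, 13.6% the TATA box, 7.81% the AP-1 site, 7.15% the E-box, 3.65% the FOXO site and 1.79% the cAMP response element. These matches are letters in a window and were not tested for use by any factor.

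Transcription factors that T cells induce within minutes to hours of a TCR signal rose together. Of 33 such genes tested, 29 were higher DEGs (87.9%, beside 11.5% over all genes) and 0 lower (beside 11.7%). All 33 passed the adjusted p threshold as higher, beside 4496 of all 14205 genes. Their median log2 fold change was 1.97, against −0.03 over all genes. *Nr4a1* (ENSMUSG00000023034, chromosome 15, 101254269 to 101274795, plus strand) encodes an orphan nuclear receptor whose level follows TCR signal strength. It stood at 59.6, 57.8, 87.2 and 107 CPM in unstimulated replicates 1 to 4 and at 1403, 1233, 1096 and 968 CPM in the stimulated ones. The lowest stimulated sample was far above the highest unstimulated one, and the change was 15.1-fold (3.91 ± 0.203 on the log2 scale, edgeR adjusted p = 1.74e-08). *Myc* (ENSMUSG00000022346, chromosome 15, 61985391 to 61990374, plus strand), the master regulator of growth, had 128, 132, 115 and 166 CPM without and 1364, 1295, 1071 and 910.5 CPM with beads (3.10 ± 0.147 on the log2 scale, edgeR adjusted p = 1.33e-08). *Irf4*, which couples TCR strength to expansion and effector fate, had 67.2, 80.9, 93.8 and 177 CPM without and 1269, 1169.8, 1071 and 1084 CPM with beads, with unstimulated replicate 4 the highest of its group (3.45 ± 0.253 on the log2 scale, edgeR adjusted p = 1.54e-07). The EGR factor gene *Egr2* rose from 5.08 ± 1.06 to 65.2 ± 19.3 CPM (3.69 ± 0.217 on the log2 scale, edgeR adjusted p = 3.66e-08). In each of these 4 genes the stimulated samples were all above the unstimulated ones. *Egr1* (3.17), *Nr4a3* (3.46), *Fosl1* (3.60) and *Irf8* (3.68) also rose, on the same log2 scale. The AP-1 partner *Batf* (0.62), *Fosl2* (0.54), *Maff* (0.80) and *Hif1a* (0.39) passed the adjusted p threshold but changed less than 2-fold.

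Of 21 factors of effector differentiation and exhaustion tested, 8 were higher (38.1%, beside 11.5% over all genes) and 1 was a lower DEG (4.76%, beside 11.7%), with a median log2 fold change of 0.29. *Zeb2*, which drives terminal effector fate, rose most, from 1.51 ± 0.841 to 31.0 ± 8.00 CPM (4.32 ± 0.292 on the log2 scale, edgeR adjusted p = 8.79e-08). *Tbx21*, encoding T-bet, the inducer of *Ifng*, rose from 55.1 ± 2.94 to 193 ± 45.5 CPM (1.81 ± 0.142 on the log2 scale, edgeR adjusted p = 2.71e-07), and *Eomes* by 2.97 on the log2 scale. *Tox*, the factor of chronic stimulation, had 14.7, 13.0, 14.0 and 12.7 CPM without and 12.1, 10.9, 12.0 and 11.8 CPM with beads. Its log2 fold change was −0.22 and did not pass the threshold (edgeR adjusted p = 0.0549), although the groups did not overlap. *Prdm1*, encoding BLIMP1, had a log2 fold change of 0.29 (edgeR adjusted p = 0.158). The Ikaros-family gene *Ikzf2* was the only lower DEG of this list, from 130.4 ± 15.04 to 50.9 ± 9.25 CPM (−1.36 ± 0.121 on the log2 scale, edgeR adjusted p = 7.61e-07).

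Of the 10 strongest rises among DEGs that averaged at least 5 CPM without overlap between groups, 7 were of cytokine and chemokine genes. Of 22 cytokine genes 16 were tested, with a median log2 fold change of 3.37. Of these, 14 were higher DEGs (87.5%, beside 11.5% over all genes) and 1 was lower (6.25%, beside 11.7%). *Il5*, *Il9*, *Il17a*, *Il21*, *Il22* and *Areg* did not pass the filter on low counts. *Ifng* (ENSMUSG00000055170, chromosome 10, 118441046 to 118445892, plus strand) encodes interferon-γ, the main effector cytokine of CD8+ T cells. Its levels were 3.32, 4.76, 7.26 and 26.0 CPM in unstimulated replicates 1 to 4 and 1256, 1228, 792 and 636 CPM in stimulated ones. Replicate 4 was the highest without beads and the lowest with beads, and the groups remained far apart (6.54 ± 0.578 on the log2 scale, edgeR adjusted p = 7.08e-07). *Il2* (ENSMUSG00000027720, chromosome 3, 37120523 to 37125959, minus strand), the growth factor of T cells, was low without beads, at 0.431, 0.821, 1.55 and 3.33 CPM, and reached 159, 116, 77.0 and 47.9 CPM (5.95 ± 0.477 on the log2 scale, edgeR adjusted p = 3.12e-07). *Tnf* had 20.1, 24.2, 22.0 and 29.4 CPM without and 309, 276, 214 and 182 CPM with beads (3.36 ± 0.172 on the log2 scale, edgeR adjusted p = 1.70e-08). *Csf2*, encoding GM-CSF, had 0.173, 0.558, 1.27 and 2.17 CPM without and 30.6, 30.3, 24.9 and 19.8 CPM with beads (4.58 ± 0.375 on the log2 scale, edgeR adjusted p = 3.70e-07). Its unstimulated level rested on as few as 4 counts in a replicate. The type 2 and haematopoietic cytokine genes *Il3* and *Il13* joined them. *Il3* had 0.129, 0.131, 0.480 and 1.43 CPM without and 38.4, 33.7, 20.2 and 16.6 CPM with beads (edgeR adjusted p = 5.31e-07). *Il13* had 0, 0.131, 0.452 and 0.981 CPM without and 13.9, 17.9, 15.6 and 10.2 CPM with beads (edgeR adjusted p = 7.34e-07). For both genes unstimulated levels rested on as few as 0 to 3 counts in a replicate, so no fold is given. *Lif* (4.80), *Lta* (3.29) and *Il10* (3.38, from a low mean of 0.42 CPM without beads) also rose. *Il16*, whose product attracts CD4-bearing cells, was the lower DEG, from 171 ± 21.9 to 52.1 ± 4.73 CPM (−1.71 ± 0.101 on the log2 scale, edgeR adjusted p = 3.68e-08). It shares 15.3% of its exon bases with *Stard5* on the other strand (11.6 CPM), so part of its counts is uncertain.

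Of 9 chemokine genes tested, 7 were higher DEGs (77.8%, beside 11.5% over all genes) and 0 lower (beside 11.7%), with a median of 4.22. *Xcl1* encodes the chemokine that attracts XCR1-bearing dendritic cells. It stood at 6.69, 6.60, 7.15 and 14.3 CPM without and 833, 583, 302 and 296 CPM with beads (5.85 ± 0.398 on the log2 scale, edgeR adjusted p = 9.34e-08). *Ccl4* and *Ccl3* encode inflammatory chemokines of the CC family. *Ccl4* had 7.94, 7.52, 12.6 and 22.5 CPM without and 1130.0, 908, 593 and 417 CPM with beads (5.90 ± 0.411 on the log2 scale, edgeR adjusted p = 1.09e-07), and *Ccl3* had 2.72, 3.22, 5.14 and 10.5 CPM without and 343, 278, 184 and 154 CPM with beads (5.44 ± 0.393 on the log2 scale, edgeR adjusted p = 1.41e-07). In all 3 genes stimulated replicate 1 was the highest sample and stimulated replicate 4 the lowest of its group. *Ccl5*, a chemokine that memory CD8+ T cells already express, had a log2 fold change of −0.14 and did not pass the threshold. *Ifng* shares 25.95% of its exon bases with *AC153498.1* on the same strand (8.62 CPM) and *Xcl1* shares 18.7% with *Gm20743* on the other strand (7.54 CPM). Both partners rose too, and whether counting assigned reads by strand is not stated.

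**Figure D2:**
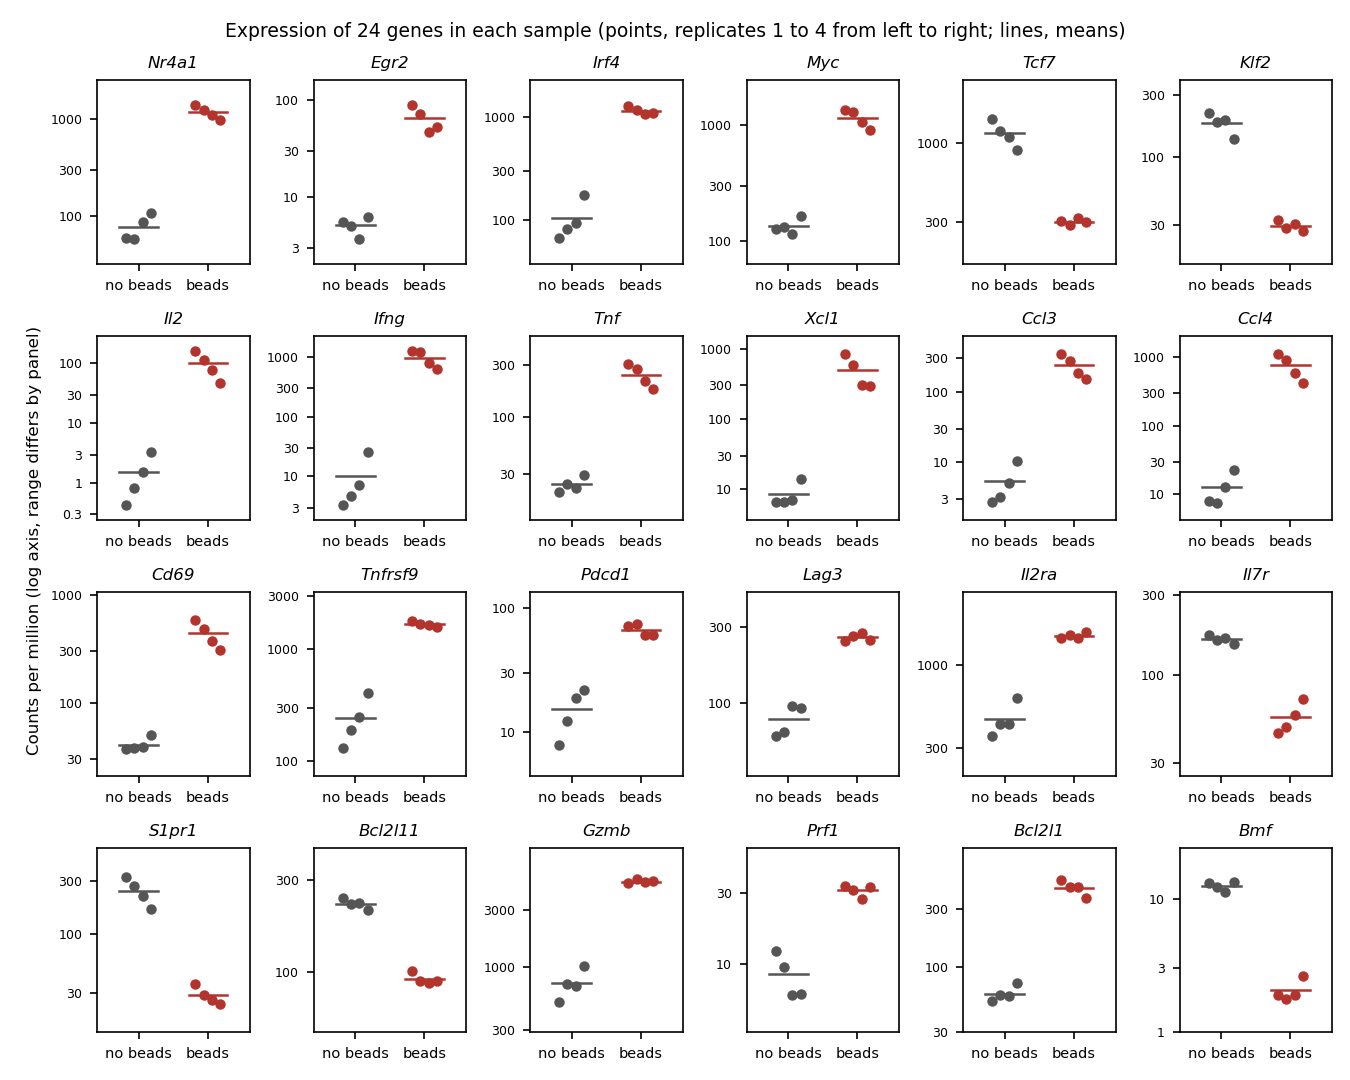
Levels of 24 genes in each of the 8 samples, in CPM on log axes whose range differs by panel. Grey points are unstimulated and red points stimulated samples, with replicates 1 to 4 from left to right and lines at the group means. In every panel the 4 stimulated points lie apart from the 4 unstimulated points, and for *Il2*, *Ifng*, *Ccl3* and *Ccl4* the points of replicate 4 are the closest together.

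*Utf1*, a chromatin-bound factor best known from embryonic stem cells, had 0.690, 1.18, 0.848 and 2.82 CPM without and 79.7, 62.1, 60.2 and 36.8 CPM with beads (5.39 ± 0.347 on the log2 scale, edgeR adjusted p = 6.32e-08). *Sema7a*, a membrane-anchored semaphorin that acts on monocytes through integrins, had 3.58, 3.94, 3.73 and 9.42 CPM without and 234, 207, 128 and 122 CPM with beads, and unstimulated replicate 4 stood well above the other 3 unstimulated samples (5.05 ± 0.328 on the log2 scale, edgeR adjusted p = 6.80e-08). With *Ifng*, *AC153498.1*, *Il2*, *Ccl4*, *Xcl1*, *Il3*, *Ccl3* and *Il13*, they make up the 10 strongest rises among DEGs that averaged at least 5 CPM and whose groups did not overlap.

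Receptors and ligands of the T cell surface were remodelled on both the costimulatory and the inhibitory side. Of 24 costimulatory molecules and activation markers, 16 were higher DEGs (66.7%, beside 11.5% over all genes) and 0 lower (beside 11.7%), with a median of 1.48. *Cd69*, an early activation marker that retains T cells in tissue by binding S1PR1, had 37.1, 37.4, 38.9 and 49.4 CPM without and 588, 484, 374 and 311 CPM with beads (3.43 ± 0.185 on the log2 scale, edgeR adjusted p = 2.31e-08). *Tnfrsf9*, encoding the costimulatory receptor 4-1BB, had 132, 189, 249 and 407 CPM without and 1797, 1683, 1661 and 1577 CPM with beads. The unstimulated samples were spread more widely than the stimulated ones, with replicate 4 the highest, and the groups did not overlap (2.78 ± 0.266 on the log2 scale, edgeR adjusted p = 1.39e-06). *Tnfsf14*, the TNF-family ligand LIGHT, rose most in this list, from 7.41 ± 2.95 to 143 ± 55.5 CPM (4.25 ± 0.310 on the log2 scale, edgeR adjusted p = 1.52e-07). *Cd40lg* (2.93, from a low mean of 0.36 CPM without beads), *Tnfrsf4* (2.84) and *Crtam* (3.28) rose as well. *Cd28* itself fell by less than 2-fold, with a log2 fold change of −0.85 that passed the adjusted p threshold (edgeR adjusted p = 1.13e-06).

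Of 19 inhibitory receptors and ligands, 10 were higher DEGs (52.6%, beside 11.5% over all genes) and 4 lower (21.05%, beside 11.7%), with a median of 1.13. *Pdcd1*, encoding PD-1, had 7.81, 12.1, 18.9 and 21.9 CPM in unstimulated replicates 1 to 4 and 72.4, 75.1, 60.9 and 61.0 CPM in stimulated ones, without overlap (2.14 ± 0.236 on the log2 scale, edgeR adjusted p = 4.95e-06). *Lag3*, whose product binds MHC class II, rose from 79.7 ± 17.7 to 259 ± 13.5 CPM (1.70 ± 0.132 on the log2 scale, edgeR adjusted p = 2.40e-07). *Havcr2*, encoding TIM-3, rose from 2.47 ± 1.17 to 18.2 ± 2.93 CPM (2.85 ± 0.256 on the log2 scale, edgeR adjusted p = 8.06e-07), and the ligand genes *Cd274* and *Pdcd1lg2* by 2.80 and 2.38 on the log2 scale. *Nt5e*, encoding the adenosine-producing enzyme CD73, fell most, from 40.2 ± 2.33 to 9.68 ± 2.42 CPM (−2.06 ± 0.143 on the log2 scale, edgeR adjusted p = 1.06e-07). *Entpd1*, which encodes the enzyme upstream of CD73, fell by 1.04 and *Cd101* by 1.66 on the log2 scale. *Ctla4* changed by −0.52, short of the 2-fold threshold.

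Genes that restrain signalling were also induced. Of 43 feedback regulators, 23 were higher DEGs (53.5%, beside 11.5% over all genes) and 3 lower (6.98%, beside 11.7%), with a median of 1.05. *Rgs16*, a brake on G-protein-coupled chemokine receptors, rose most, from 25.4 ± 10.8 to 618 ± 176 CPM (4.60 ± 0.294 on the log2 scale, edgeR adjusted p = 5.93e-08). *Dusp5*, a nuclear phosphatase of ERK, had 61.4, 69.5, 79.8 and 90.4 CPM without and 406, 377, 356 and 313 CPM with beads (2.27 ± 0.121 on the log2 scale, edgeR adjusted p = 2.14e-08). An antisense gene covers 22.1% of its exon bases, so its counts are uncertain to that extent. *Tnfaip3*, encoding the NF-κB inhibitor A20, had 146, 153, 174 and 183 CPM without and 666, 611, 538 and 493 CPM with beads (1.81 ± 0.108 on the log2 scale, edgeR adjusted p = 3.89e-08). The Sprouty genes *Spry1* (4.56) and *Spry4* (2.86), the STAT5 target *Cish* (2.83) and *Nfkbid* (3.87) rose too. Unstimulated *Spry4* was low, at a mean of 0.24 CPM. *Sla2*, an adaptor that promotes degradation of TCR components, fell most, from 137 ± 14.7 to 27.6 ± 3.03 CPM (−2.31 ± 0.101 on the log2 scale, edgeR adjusted p = 9.48e-09). It shares 23.6% of its exon bases with *Rab5if* on the other strand (37.5 CPM), so its counts are uncertain to that extent. *Socs3* (−0.26) and *Cblb* (0.31) changed less than 2-fold.

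Few genes of the receptor complex and its proximal kinases rose 2-fold. Of 33 tested genes of the TCR complex and proximal signalling, 1 was a higher and 4 were lower DEGs (median −0.19), shares of 3.03% and 12.1% beside the 11.5% and 11.7% over all genes. *Cd3e* had 319, 327, 322 and 291 CPM without and 218, 218, 229 and 215 CPM with beads, a fall of less than 2-fold without overlap (−0.52 ± 0.0664 on the log2 scale, edgeR adjusted p = 1.80e-05). *Cd8a* rose slightly, from 975 ± 38.3 to 1127 ± 49.9 CPM (0.21 ± 0.0696 on the log2 scale, edgeR adjusted p = 0.0181). *Lck* overlapped between the groups, which averaged 597 ± 48.7 to 523 ± 23.4 CPM (−0.19 ± 0.0778 on the log2 scale, edgeR adjusted p = 0.0441). The adaptor gene *Lcp2*, encoding SLP-76, was the only higher DEG, from 156 ± 9.57 to 601 ± 81.4 CPM (1.94 ± 0.0996 on the log2 scale, edgeR adjusted p = 1.71e-08), and the TEC-family kinase gene *Txk* fell most, from 67.6 ± 7.71 to 23.9 ± 2.11 CPM (−1.499 ± 0.0968 on the log2 scale, edgeR adjusted p = 6.42e-08).

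Receptors for cytokines diverged. Of 29 genes of cytokine receptors and JAK-STAT signalling, 5 were higher (17.2%) and 8 lower DEGs (27.6%), with a median of −0.18. Over all genes these shares were 11.5% and 11.7%. *Il2ra*, encoding the high-affinity IL-2 receptor chain CD25, had 354, 425, 421 and 623 CPM without and 1501, 1554, 1503 and 1622 CPM with beads (1.76 ± 0.143 on the log2 scale, edgeR adjusted p = 3.44e-07). *Il15ra* rose from 10.8 ± 1.83 to 50.2 ± 8.17 CPM (2.22 ± 0.141 on the log2 scale, edgeR adjusted p = 5.72e-08). *Il7r*, the receptor of the homeostatic cytokine IL-7, had 172, 161, 165 and 154 CPM without and 45.3, 49.2, 58.1 and 72.2 CPM with beads (−1.54 ± 0.123 on the log2 scale, edgeR adjusted p = 3.08e-07). *Ifngr1*, the ligand-binding chain of the interferon-γ receptor, fell most, with 738, 714, 715 and 640.3 CPM without and 101, 95.1, 139 and 150.1 CPM with beads (−2.53 ± 0.139 on the log2 scale, edgeR adjusted p = 2.55e-08). Receptor genes of type I interferon (*Ifnar1*, −1.34), IL-6 (*Il6ra*, −1.73) and TGF-β (*Tgfbr2*, −1.23) also fell.

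The stem-like and naive programme fell. Of 19 transcription factors of this state, 0 were higher DEGs and 7 lower (36.8%, beside 11.7% over all genes). As lower, 16 passed the adjusted p threshold, beside 4944 of all 14205 genes, and the median was −0.77. *Tcf7* (ENSMUSG00000000782, chromosome 11, 52252371 to 52283014, minus strand) had 1446, 1197, 1098 and 901 CPM in unstimulated replicates 1 to 4 and 303, 286, 319 and 300.4 CPM in stimulated ones. The stimulated samples lay within a narrow band at 0.260 of the unstimulated level (−1.94 ± 0.123 on the log2 scale, edgeR adjusted p = 5.69e-08). *Klf2* (ENSMUSG00000055148, chromosome 8, 72319033 to 72321656, plus strand), which maintains quiescence and the expression of homing receptors, had 219, 186, 194 and 138 CPM without and 32.6, 28.3, 30.6 and 26.9 CPM with beads (−2.63 ± 0.129 on the log2 scale, edgeR adjusted p = 1.45e-08). *Klf3* (−2.59), *Lef1* (−1.64) and *Bcl6* (−1.14) fell as well. *Bach2* (0.00), *Foxp1* (0.18) and *Id3* (0.37) did not pass the threshold.

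Quiescence genes went the same way, with 9 lower DEGs of 26 tested (34.6%, beside 11.7% over all genes) and 0 higher (median −0.75). *Pik3ip1*, a membrane inhibitor of PI3K, had 222, 183, 154 and 119 CPM without and 24.3, 20.9, 20.6 and 21.1 CPM with beads (−2.96 ± 0.163 on the log2 scale, edgeR adjusted p = 2.59e-08). *Tsc22d3*, the glucocorticoid-induced leucine zipper gene, fell from 119.8 ± 10.9 to 17.0 ± 4.79 CPM (−2.82 ± 0.165 on the log2 scale, edgeR adjusted p = 3.50e-08). *Cdkn1b* (−2.60), encoding the cell cycle inhibitor p27, *Rbl2* (−2.04) and *Txnip* (−1.93), a brake on glucose uptake, fell too, whereas *Btg1* (0.54) and *Slfn2* (0.84) were higher by less than 2-fold. Of 26 homing, egress and adhesion genes, 3 were higher DEGs (11.5%, the share over all genes) and 10 lower (38.5%, beside 11.7%), with a median of −0.34. *S1pr1* (ENSMUSG00000045092, chromosome 3, 115710433 to 115715072, minus strand), the receptor that guides T cells out of lymphoid organs, had 326, 271, 222 and 168 CPM without and 35.8, 28.9, 25.8 and 24.03 CPM with beads (−3.10 ± 0.191 on the log2 scale, edgeR adjusted p = 4.75e-08). *S1pr4* (−2.47), *Ccr7* (−1.23), *Cxcr4* (−1.47) and *Cxcr3* (−1.31) fell with them. The αv integrin gene *Itgav* rose, from 33.3 ± 4.61 to 108 ± 15.7 CPM (1.70 ± 0.117 on the log2 scale, edgeR adjusted p = 1.04e-07), as did the chemokine receptor gene *Ccr8* (2.85).

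Among the 10 strongest falls that averaged at least 5 CPM, *S1pr1*, *Pik3ip1* and *Tsc22d3* have been described. The other 7 were of diverse function. *Gucy2e*, a membrane guanylate cyclase gene best known from the retina, had 7.98, 8.84, 12.4 and 10.1 CPM without and 0.660, 0.363, 1.25 and 0.648 CPM with beads (−3.76 ± 0.272 on the log2 scale, edgeR adjusted p = 1.44e-07). *Itga7*, a laminin-binding integrin gene, had 29.4, 32.1, 39.2 and 34.0 CPM without and 1.03, 1.34, 4.98 and 6.20 CPM with beads (−3.37 ± 0.405 on the log2 scale, edgeR adjusted p = 1.01e-05). *Fbxo32*, encoding the FOXO-dependent ubiquitin ligase atrogin-1, fell from 52.7 ± 2.49 to 7.03 ± 2.70 CPM (−2.93 ± 0.204 on the log2 scale, edgeR adjusted p = 1.10e-07). *Mxd4*, encoding a partner of MAX that opposes MYC, fell from 115 ± 13.8 to 17.3 ± 1.1996 CPM (−2.73 ± 0.0985 on the log2 scale, edgeR adjusted p = 4.80e-09). The pseudogene *Bambi-ps1* (−2.93), *Mettl7a1* (−2.87) and *Mturn* (−2.71) completed this group.

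Of 19 cytolytic genes tested, 7 were higher DEGs (36.8%, beside 11.5% over all genes) and 2 lower (10.5%, close to the 11.7% over all genes), with a median of 0.22. *Gzmb* (ENSMUSG00000015437, chromosome 14, 56258838 to 56262260, minus strand), encoding the killer protease granzyme B, had 518, 728, 702 and 1027 CPM without and 5029.9, 5441, 5095 and 5191 CPM with beads (2.80 ± 0.167 on the log2 scale, edgeR adjusted p = 3.94e-08). In FPKM, which allows levels to be compared between genes, it went from 498 ± 139.6 to 3509.7 ± 123, the largest gain of any DEG with at least 500 bases of exon, ahead of *Ccl4* (18.4 ± 10.1 to 1122 ± 473 FPKM) and *Xcl1* (15.96 ± 6.87 to 937 ± 482 FPKM). *Prf1*, encoding perforin, rose from 8.56 ± 2.92 to 31.3 ± 2.68 CPM (1.89 ± 0.188 on the log2 scale, edgeR adjusted p = 1.96e-06). *Serpinb9*, the inhibitor that shields cells from their own granzyme B, rose from 29.9 ± 9.56 to 221 ± 50.4 CPM (2.88 ± 0.207 on the log2 scale, edgeR adjusted p = 1.35e-07). The lectin receptor gene *Klrd1* (CD94) fell from 188 ± 29.4 to 66.5 ± 4.56 CPM (−1.496 ± 0.106 on the log2 scale, edgeR adjusted p = 1.21e-07), and *Gzmk* fell by 1.30 on the log2 scale. *Gzma* (−0.56) was lower by less than 2-fold and *Gzmm* (−0.41) did not pass the threshold.

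Ribosome assembly had the largest share of DEGs among the 28 lists of genes counted here. Of 45 ribosome biogenesis factors, 44 were higher DEGs (97.8%, beside 11.5% over all genes) and 0 lower. All 45 passed the adjusted p threshold as higher without overlap between groups. Of all 14205 genes, 4496 passed as higher and 8744 did not overlap between groups. Log2 fold changes of the 45 factors ranged from 0.86 to 2.92 (median 1.73). *Nop56*, a core protein of the particles that methylate ribosomal RNA, had 196, 236, 199.99 and 242 CPM without and 1129, 1068, 909.8 and 798 CPM with beads (2.16 ± 0.119 on the log2 scale, edgeR adjusted p = 2.59e-08). *Ncl*, the nucleolar protein nucleolin, had 1237, 1305, 1146 and 1439 CPM without and 4263, 3630.5, 2932 and 2821 CPM with beads (1.41 ± 0.129 on the log2 scale, edgeR adjusted p = 9.56e-07). *Ppan*, needed for maturation of the large subunit, rose most, from 49.2 ± 2.78 to 372 ± 73.6 CPM (2.92 ± 0.132 on the log2 scale, edgeR adjusted p = 1.12e-08). For structural proteins of the ribosome the counts were different. Of 41 cytosolic ribosomal protein genes, 0 were DEGs in edgeR, beside 23.2% of all genes. The adjusted p threshold alone was passed by 7 of the 41, and by 66.5% of all genes. All log2 fold changes of the 41 lay between −0.01 and 0.31 (median 0.13). *Rpl3* had 2227, 2158, 2215 and 2270.4 CPM without and 2604, 2289.7, 2395 and 2379 CPM with beads (0.12 ± 0.0711 on the log2 scale, edgeR adjusted p = 0.141). Counts of ribosomal protein genes can be shared with their many processed pseudogenes.

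Genes of nutrient uptake and anabolism were more often higher than lower DEGs. Of 14 amino acid transporter genes, 8 were higher DEGs (57.1%, beside 11.5% over all genes) and 1 was lower (7.14%, beside 11.7%), with a median of 1.29. *Slc7a5*, the carrier of large neutral amino acids, had 167, 171, 158 and 183 CPM without and 672, 628, 552 and 523 CPM with beads (1.804 ± 0.0917 on the log2 scale, edgeR adjusted p = 1.67e-08). *Slc7a1*, which takes up arginine, rose from 110.0 ± 10.6 to 439.7 ± 59.5 CPM (1.999 ± 0.106 on the log2 scale, edgeR adjusted p = 2.10e-08), and the lysosomal amino acid sensor gene *Slc38a9* fell from 36.2 ± 3.22 to 17.1 ± 2.67 CPM (−1.09 ± 0.114 on the log2 scale, edgeR adjusted p = 2.94e-06). *Slc38a9* sits close to the fold threshold and was no DEG on log2(FPKM + 1) values or without stimulated replicate 1, where its log2 fold change fell just short of −1. Of 27 genes of polyamine and nucleotide synthesis, 13 were higher DEGs (48.15%, beside 11.5% over all genes) and 0 lower (median 0.95). *Odc1*, the rate-limiting enzyme of polyamine synthesis, had 295, 324, 359.5 and 416 CPM without and 1336, 1163, 1114 and 1052 CPM with beads (1.74 ± 0.113 on the log2 scale, edgeR adjusted p = 6.63e-08). *Srm*, encoding spermidine synthase, rose from 65.9 ± 2.67 to 386 ± 75.9 CPM (2.55 ± 0.126 on the log2 scale, edgeR adjusted p = 1.52e-08). Of 19 ATF4, serine and one-carbon genes, 9 were higher DEGs (47.4%, beside 11.5% over all genes) and 0 lower (median 0.88). *Atf4*, the transcription factor of the amino acid response, rose from 259.9 ± 14.5 to 572 ± 37.4 CPM (1.14 ± 0.0751 on the log2 scale, edgeR adjusted p = 7.64e-08). *Mthfd2*, of mitochondrial folate metabolism, rose from 112 ± 13.1 to 269 ± 20.6 CPM (1.27 ± 0.0914 on the log2 scale, edgeR adjusted p = 1.38e-07), and *Chac1*, which breaks down glutathione, from 2.60 ± 0.779 to 19.3 ± 2.28 CPM (2.89 ± 0.180 on the log2 scale, edgeR adjusted p = 5.10e-08).

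Of 23 glycolysis genes, 2 were higher and 2 lower DEGs, shares close to those over all genes, and 13 passed the adjusted p threshold as higher (median 0.37). Of all 14205 genes, 4496 passed it as higher. *Hk2*, encoding the first enzyme of glycolysis, rose from 245 ± 25.9 to 508 ± 26.0 CPM (1.05 ± 0.0861 on the log2 scale, edgeR adjusted p = 3.59e-07). It was just past the fold threshold and fell short of it with upper-quartile scaling (0.96) and without unstimulated replicate 1 (0.99). *Slc2a1* (0.53) and *Ldha* (0.54) were higher by less than 2-fold. *Slc16a1*, the lactate exporter MCT1, rose from 107 ± 8.28 to 429 ± 86.2 CPM (1.998 ± 0.128 on the log2 scale, edgeR adjusted p = 5.88e-08), and *Aldoc*, a brain-type aldolase gene, fell from 49.8 ± 7.87 to 18.7 ± 7.85 CPM (−1.43 ± 0.243 on the log2 scale, edgeR adjusted p = 0.000197). Of 33 nuclear genes of oxidative phosphorylation, *Cycs*, encoding cytochrome c, was the only DEG, from 74.8 ± 4.93 to 199 ± 33.3 CPM (1.41 ± 0.108 on the log2 scale, edgeR adjusted p = 2.16e-07), and the median was 0.17. Over all genes, 23.2% were DEGs. *Cox4i1* went from 364 ± 26.3 to 408 ± 29.3 CPM and did not pass the threshold (edgeR adjusted p = 0.0862). Of 30 cholesterol genes tested, 8 were higher DEGs (26.7%) and 4 lower (13.3%, close to the 11.7% over all genes), with a median of 0.12. The synthesis genes *Mvk* (−0.96), *Mvd* (−0.51) and *Dhcr7* (−0.49) were lower by less than 2-fold. The exporter genes *Abcg1*, from 83.6 ± 8.77 to 25.4 ± 1.003 CPM (−1.72 ± 0.0842 on the log2 scale, edgeR adjusted p = 1.45e-08), and *Abca1* (−1.56) fell.

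Cell cycle genes of S phase and mitosis held no higher DEG. Of 20 G1 genes, 4 were higher (20%) and 3 lower DEGs (15%), beside 11.5% and 11.7% over all genes. Their median of 0.05 turned to −0.04 with upper-quartile scaling. *Ccnd2*, the cyclin D gene induced by mitogens, had 271, 282, 257 and 315 CPM without and 1274, 1133, 929 and 827 CPM with beads (1.89 ± 0.128 on the log2 scale, edgeR adjusted p = 9.02e-08). *Cdkn1a*, encoding the inhibitor p21, had 62.8, 71.9, 112 and 148 CPM without and 195, 212, 295 and 322 CPM with beads (1.37 ± 0.244 on the log2 scale, edgeR adjusted p = 0.000278). *Ccng2*, a cyclin gene of arrested cells, fell from 292 ± 8.36 to 66.9 ± 26.9 CPM (−2.13 ± 0.217 on the log2 scale, edgeR adjusted p = 2.45e-06). Of 29 DNA replication genes, 0 were DEGs in edgeR, 21 passed the adjusted p threshold as lower and 1 as higher (median −0.37). Of all 14205 genes, 23.2% were DEGs, 4944 passed the adjusted p threshold as lower and 4496 as higher. *Mcm3* (−0.09) and *Pcna* (−0.15) did not pass it. Of 28 mitotic genes, 0 were higher DEGs and 8 lower (28.6%, beside 11.7% over all genes). The adjusted p threshold was passed as lower by 26, and the median was −0.85. Many of these falls lay close to 2-fold, and the count of 8 ranged from 4 without stimulated replicate 2 to 14 without stimulated replicate 4, and it was 5 by DESeq2, with RLE factors or without stimulated replicate 1, 13 with upper-quartile factors and 4 on log2(FPKM + 1) values. *Nusap1*, a spindle protein gene, fell from 206 ± 15.8 to 78.6 ± 13.2 CPM (−1.39 ± 0.109 on the log2 scale, edgeR adjusted p = 2.62e-07), and *Plk1*, a mitotic kinase gene, had 114, 112, 112 and 109.9 CPM without and 68.0, 74.2, 72.6 and 84.7 CPM with beads (−0.58 ± 0.0738 on the log2 scale, edgeR adjusted p = 1.65e-05). *Ccnb1* went from 115 ± 5.05 to 99.1 ± 3.47 CPM (−0.21 ± 0.0633 on the log2 scale, edgeR adjusted p = 0.00991).

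Some genes of the BCL2 family changed. Of 15 tested, 4 were higher DEGs (26.7%, beside 11.5% over all genes) and 2 lower (13.3%, close to the 11.7% over all genes). The median was 0.14, and 6 did not pass the adjusted p threshold. *Bcl2l1*, encoding the survival protein BCL-XL, had 53.4, 59.2, 58.2 and 74.7 CPM without and 515, 448, 447 and 367 CPM with beads (2.85 ± 0.125 on the log2 scale, edgeR adjusted p = 9.48e-09). *Bcl2a1b* rose from 2.26 ± 0.158 to 21.1 ± 7.58 CPM (3.22 ± 0.222 on the log2 scale, edgeR adjusted p = 1.01e-07), but 49.1% of its exon bases are shared with *Gm29094* on the same strand and its paralogues are nearly identical, so which copy gave these counts is uncertain. *Bcl2* went from 358 ± 20.8 to 445 ± 2.84 CPM, a rise of less than 2-fold (0.31 ± 0.0673 on the log2 scale, edgeR adjusted p = 0.00116). The death-promoting genes *Bcl2l11*, encoding BIM, and *Bmf* fell. *Bcl2l11* had 243, 224, 229 and 209 CPM without and 101, 89.3, 87.4 and 89.8 CPM with beads (−1.30 ± 0.0753 on the log2 scale, edgeR adjusted p = 3.37e-08), and *Bmf* had 13.1, 12.3, 11.4 and 13.4 CPM without and 1.90, 1.78, 1.88 and 2.63 CPM with beads (−2.62 ± 0.145 on the log2 scale, edgeR adjusted p = 2.66e-08).

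Of 27 interferon-stimulated genes tested, 12 were higher DEGs (44.4%, beside 11.5% over all genes) and 0 lower, with a median of 0.51. *Isg15*, a ubiquitin-like antiviral protein gene, had 3.75, 4.24, 2.94 and 4.10 CPM without and 68.6, 88.6, 34.5 and 37.3 CPM with beads, with stimulated replicates 1 and 2 above replicates 3 and 4 (3.93 ± 0.298 on the log2 scale, edgeR adjusted p = 2.00e-07). *Irf7* rose from 26.3 ± 1.82 to 62.6 ± 16.5 CPM (1.26 ± 0.151 on the log2 scale, edgeR adjusted p = 1.03e-05), and *Usp18* (3.06), *Rsad2* (3.03) and *Mx1* (2.38) rose too. *Gbp2* (−0.53) and *Tap1* (−0.39), both also known as targets of interferon-γ, were lower by less than 2-fold, and *Irf1* (−0.13) did not pass the threshold. Of 34 proteasome and chaperone genes, 9 were higher DEGs (26.5%, beside 11.5% over all genes) and 0 lower (median 0.77). *Hspa5*, the chaperone of the endoplasmic reticulum, rose from 366 ± 30.7 to 1015 ± 155 CPM (1.47 ± 0.109 on the log2 scale, edgeR adjusted p = 1.65e-07), and *Hspd1*, that of mitochondria, from 342 ± 49.1 to 961 ± 139 CPM (1.49 ± 0.122 on the log2 scale, edgeR adjusted p = 3.70e-07). *Hsph1* rose most in this list, from 88.4 ± 13.3 to 265 ± 56.7 CPM (1.58 ± 0.147 on the log2 scale, edgeR adjusted p = 1.09e-06). Of 13 clock genes, 3 were higher DEGs (23.1%) and 1 was lower (7.69%), beside 11.5% and 11.7% over all genes (median 0.58). *Per2*, a repressor in the clock's feedback loop, had 7.12, 7.03, 5.29 and 5.14 CPM without and 50.01, 52.2, 40.3 and 36.4 CPM with beads (2.87 ± 0.149 on the log2 scale, edgeR adjusted p = 1.74e-08). *Per1* went from 93.4 ± 5.67 to 123 ± 5.72 CPM (0.40 ± 0.0684 on the log2 scale, edgeR adjusted p = 0.000214), and the clock output gene *Dbp* fell from 9.12 ± 1.46 to 3.53 ± 0.265 CPM (−1.37 ± 0.146 on the log2 scale, edgeR adjusted p = 3.74e-06). *Dbp* shares 18.01% of its exon bases with the more abundant *Sphk2* on the other strand (40.6 CPM) and was no DEG on log2(FPKM + 1) values (−0.87), so its fall is uncertain.

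**Figure D3:**
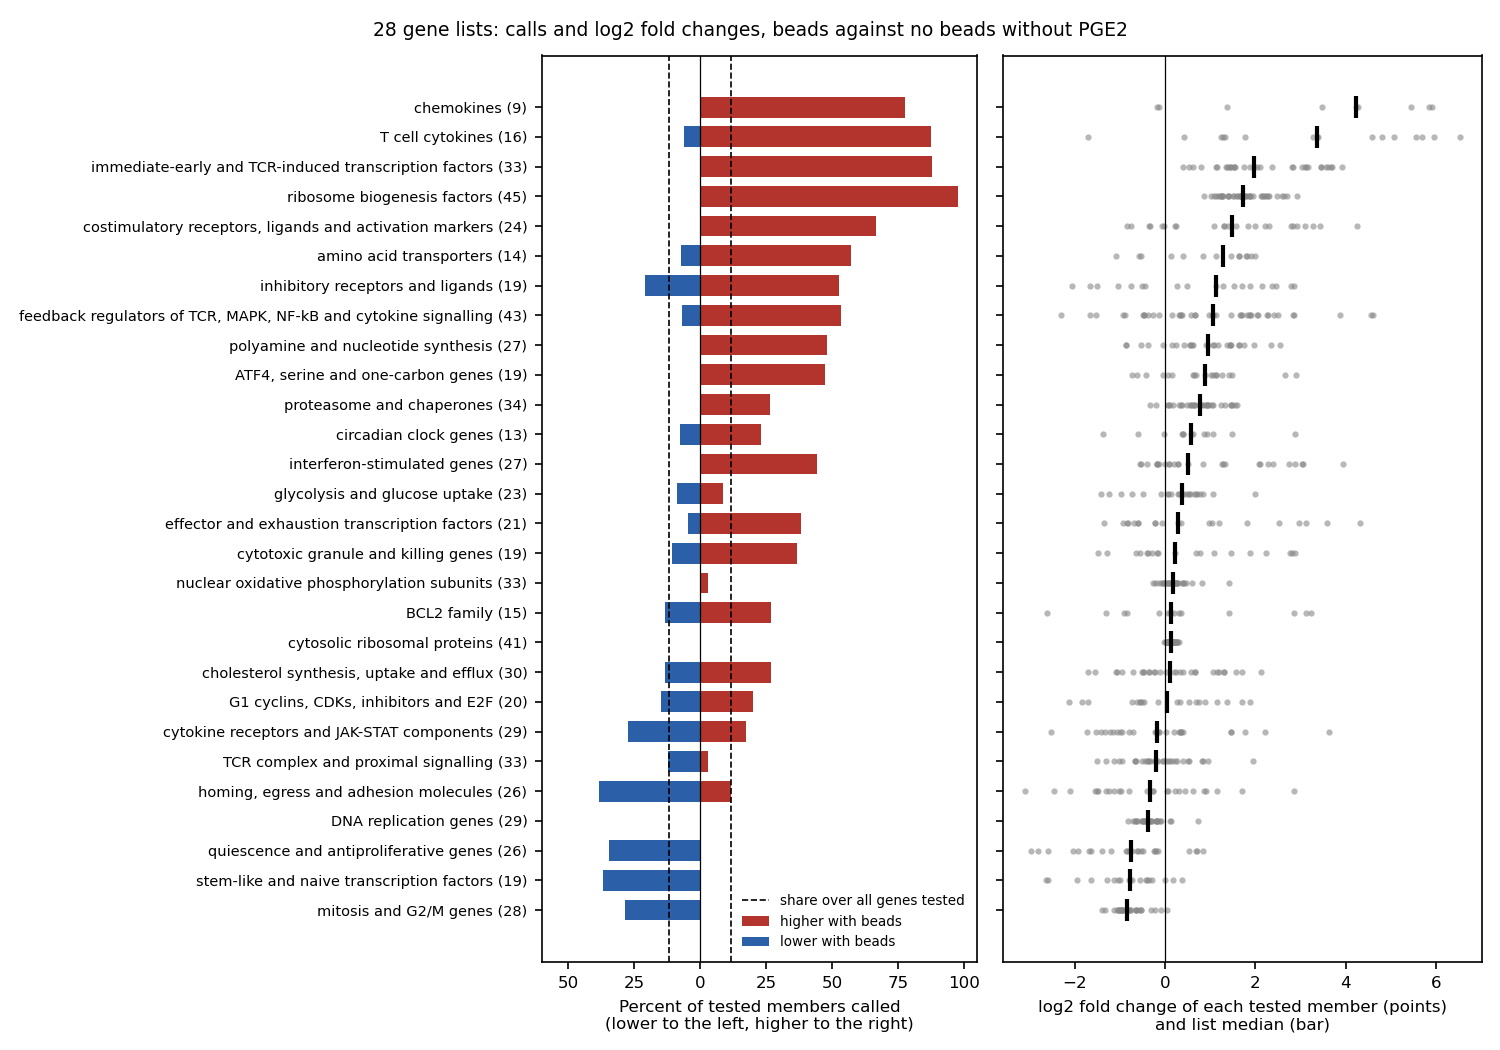
The 28 gene lists, ordered by median, with the number of tested members in brackets. Left, the percent of tested members that were higher (red, to the right) or lower DEGs (blue, to the left), with dashed lines at the shares over all genes (11.5% and 11.7%). Right, the log2 fold change of each tested member (points) and the list median (bar). Chemokines, cytokines, immediate-early factors and ribosome biogenesis factors lie at the top, with medians of 4.22, 3.37, 1.97 and 1.73, and mitotic genes at the bottom with −0.85.

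By gene class, small nucleolar RNAs (snoRNAs), which guide modification of ribosomal RNA and mostly lie in introns of host genes, were largely higher. Of 56 snoRNA genes tested, 46 were higher DEGs and 0 lower (82.1% in either direction, beside 23.2% over all genes). The median log2 fold change was 1.51, with a range of −0.64 to 2.92. The groups did not overlap for 45 snoRNAs, beside 8744 of all 14205 genes tested (61.6%). The summed level of the 56 was low, at 39.7 to 45.0 CPM in unstimulated and 104.6 to 124.6 CPM in stimulated samples. The filter on low counts could be passed through 1 group alone. Some snoRNAs may thus have been tested only because they were high with beads. This raises the share of higher DEGs, the count without overlap and the differences from host genes given below. The libraries were selected for poly(A) tails, which mature snoRNAs lack. Of these snoRNAs, 49 lay within a tested gene on the same strand, 36 such host genes in all. The hosts had a median log2 fold change of 0.20, and 9 of them were higher DEGs and 0 lower. The snoRNA had the larger log2 fold change than its host in 40 of the 49 cases, with a median difference of 1.14. Hosts that code for ribosomal or translation proteins give examples chosen after their values were seen. *Snora62* rose by 2.76 in *Rpsa* (0.06), and *Snord83b* rose by 2.68 in *Rpl3* (0.12). Both were very low without beads, at means of 0.132 and 0.329 CPM, against 0.954 and 2.12 CPM with beads. With DESeq2 the count was 44, with upper-quartile factors 43 and without stimulated replicate 1 it was 46.

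Long intergenic RNAs held 36 higher and 89 lower DEGs of 361 tested (34.6% in either direction), and antisense genes 49 higher and 82 lower of 398 (32.9%). Of 861 processed pseudogenes, 71 were higher and 26 lower (11.3%). Over all genes tested, 11.5% were higher, 11.7% lower and 23.2% either. Long intergenic and antisense genes thus exceeded all genes mainly on the lower side, and processed pseudogenes fell below them in both directions. Of 82 TCR variable gene segments, whose use marks T cell clones, 0 were DEGs in edgeR and 0 in DESeq2. An unadjusted p below 0.05 was found for 23 segments, and 19 passed the adjusted p threshold, 15 in DESeq2. Passing was less common than over all genes tested, of which 66.5% passed the adjusted p threshold in edgeR. Log2 fold changes of the segments ranged from −0.79 to 1.00. Gene length moved with the response. Among genes with a genomic span of up to 4086 bases (the shortest 20%), 11.9% were higher and 9.64% lower DEGs, and in those from 53842 bases (the longest 20%) 8.66% were higher and 13.6% lower.

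**Figure D4:**
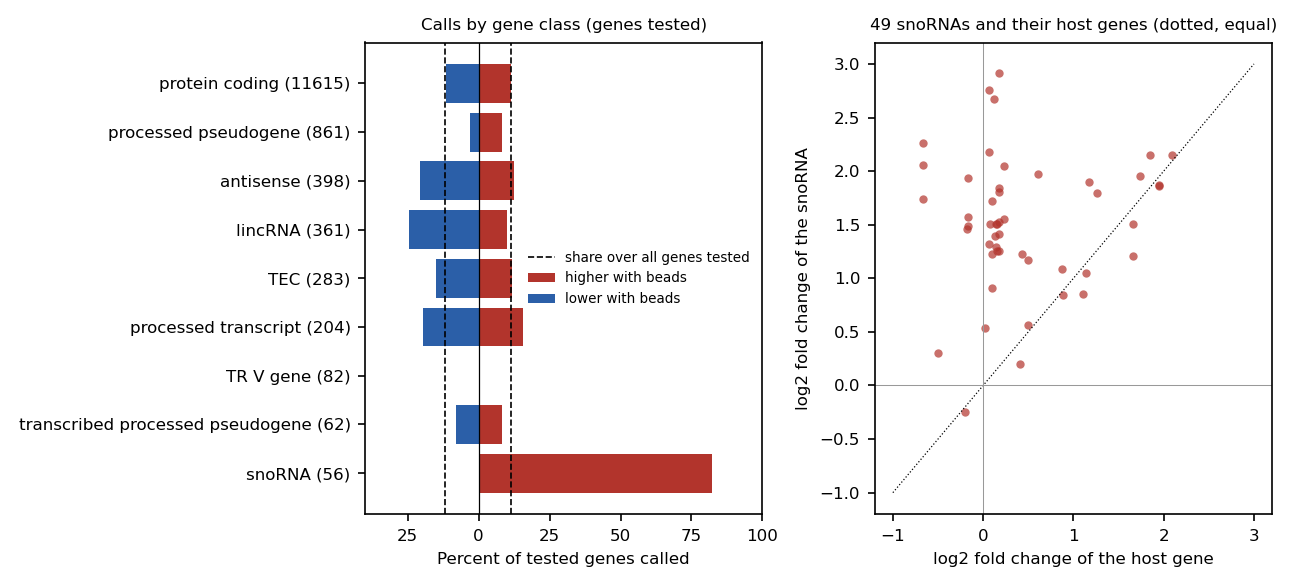
Left, the percent of tested genes that were higher (red) or lower DEGs (blue) in each annotated class with at least 50 tested genes, whose number is in brackets, with dashed lines at the shares over all genes. Right, the log2 fold change of 49 snoRNAs against that of the gene whose span holds them, with a dotted line of equality. Most snoRNAs lie above the line, many over hosts whose own change is near 0.

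The same response was compared with that of cells exposed to PGE2, a lipid that raises cAMP in T cells, which had 100 ng/ml in the 1-h preincubation and their own 4 unstimulated and 4 stimulated samples. In a fit of all 16 samples, the response differed with PGE2 for 113 of 15096 genes (0.749%) at an adjusted p below 0.05. Of the 103 genes named by rule, which were chosen by list or by their response without PGE2, 102 had fitted log2 fold changes of the same sign with and without PGE2, *Per1* being the exception, and the interaction passed the threshold for 7. With the replicate number as a block it passed for 17. The share over all genes in the blocked fit is not given here, so this 17 cannot be set beside 0.749%. The A20 gene *Tnfaip3* had log2 fold changes of 1.83 without and 0.70 with PGE2 (difference −1.12, SE 0.131, edgeR adjusted p = 0.000873). In FPKM, its unstimulated level was 19.7 to 24.4 without and 41.7 to 45.3 with PGE2, and its stimulated level 66.2 to 90.0 and 61.7 to 79.9. The unstimulated groups were thus apart and the stimulated groups overlapped. The same held for *Pdcd1*, at 3.95 to 10.9 FPKM without and 13.1 to 30.6 FPKM with PGE2 in unstimulated cells and at 30.5 to 37.8 and 25.1 to 34.0 FPKM in stimulated ones, with responses of 2.15 without and 0.40 with PGE2 (difference −1.75, SE 0.365, edgeR adjusted p = 0.0316). It also held for *Per1*, with responses of 0.41 without and −0.04 with PGE2 (difference −0.45, SE 0.0805, edgeR adjusted p = 0.0125). For *Srm* and *Per2* the unstimulated level was lower with PGE2. *Srm* had 37.2 to 41.3 FPKM without and 8.76 to 13.4 FPKM with PGE2 in unstimulated cells, and 178.8 to 284 and 106.6 to 241 FPKM in stimulated ones, with responses of 2.56 without and 4.08 with PGE2 (difference 1.53, SE 0.279, edgeR adjusted p = 0.0149). *Per2* had responses of 2.88 without and 4.09 with PGE2 (difference 1.204, SE 0.250, edgeR adjusted p = 0.0315).

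The falls of *Ifngr1* and *Klf2* were shallower in the presence of PGE2. *Ifngr1* had 216 to 253 FPKM unstimulated and 32.5 to 51.2 FPKM stimulated without PGE2, against 330 to 433 and 134 to 183 FPKM with it, so the groups were apart in both states. Its responses were −2.51 without and −1.26 with PGE2 (difference 1.25, SE 0.204, edgeR adjusted p = 0.00682). *Klf2* overlapped in unstimulated cells, at 71.6 to 115.6 and 82.7 to 113.3 FPKM, and was apart in stimulated cells, at 14.1 to 17.2 FPKM without and 25.9 to 33.7 FPKM with PGE2. Its responses were −2.62 without and −1.796 with PGE2 (difference 0.83, SE 0.178, edgeR adjusted p = 0.0391). Each of *Tnfaip3*, *Ifngr1*, *Per1* and *Srm* passed in all 16 fits that left out 1 sample, *Pdcd1* in 7, *Per2* in 6 and *Klf2* in 3. For the other 96 named genes, among them *Il2*, *Ifng* and *Tcf7*, a difference was not detected at this sample size, which does not show that the responses were alike.

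**Figure D5:**
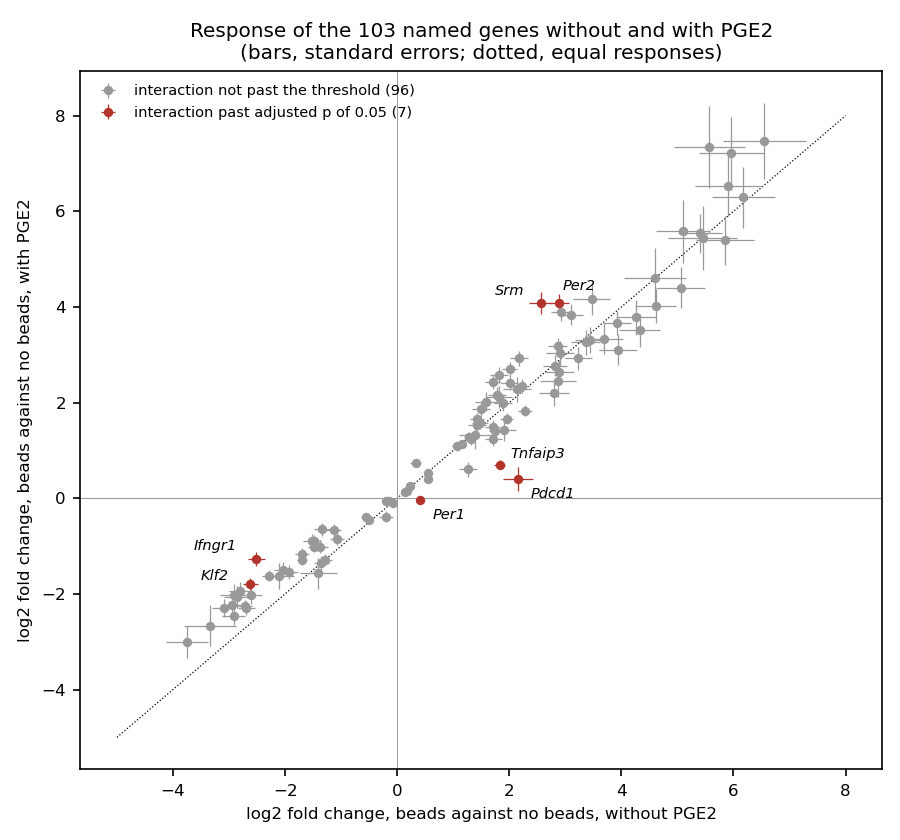
Log2 fold change with beads without PGE2 (x axis) and with PGE2 (y axis) for the 103 named genes, from 1 fit of 16 samples. Bars are approximate standard errors derived from the F test, and the dotted line marks equality. The 7 red genes are those whose interaction passed an adjusted p of 0.05. *Srm* and *Per2* lie above the line on the rising side, *Tnfaip3*, *Pdcd1* and *Per1* below it, and *Ifngr1* and *Klf2* above it on the falling side.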

How the data were processed

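Poly(A)-selected RNA was sequenced from TCF1+CD8+ T cells in 4 groups of 4 samples, and the 4 unstimulated and 4 stimulated samples without PGE2 were compared here. The deposited values are read counts per gene, which the authors obtained by aligning reads to GRCm38 and counting them with featureCounts, and FPKM, which the authors computed from the counts and gene lengths. The submitters' processing notes name HISAT2 2.0.5, featureCounts 1.5.0-p3 and DESeq2 1.20.0. Strand use in counting and the annotation release are not given in the sources used here. Counts of ambiguous or repeated sequence and of overlapping genes can therefore be shared or lost, and poly(A) selection sets which transcripts are seen.

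From the counts, genes were kept by filterByExpr (minimum count 10), scaled by TMM and fitted by edgeR 4.0.16 (quasi-likelihood F test, two-sided, R 4.3.3) with stimulation as the only term. DEGs had a Benjamini-Hochberg adjusted p below 0.05 over all genes tested and a change of at least 2-fold. CPM used the TMM-scaled library sizes. Scripts were tested on simulated counts. FPKM were tested with limma 3.58.1 on log2(FPKM + 1) after a filter of mean FPKM of at least 1. Alternatives were DESeq2 1.42.0, other scaling factors, filters and thresholds, all 16 samples, a replicate block and each sample left out. Fits without both samples of a replicate number were added after seeing the data. Intervals are not given, as total counts of 22678254 to 42950763 made counting error small beside replicate spread for all but the lowest genes.

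Gene lists were written by hand, and the comparison, the lists and the rule for named genes were chosen with earlier results of these data known, so lists carry no test. Of 745 list entries, 4 were left out because a symbol belonged to several identifiers. Named by rule were 1 or more index genes of each list, the DEG with the largest rise and fall in each list, and the 10 largest rises and falls of all genes (both at a mean of at least 5 CPM without overlap between groups). Other genes are given as examples chosen after their values were seen. Some genes that the rule names are not reported here. The replicate numbers are part of the sample labels, which do not say what a number shares. Deviations from the group means correlated between same-numbered samples at 0.407, 0.119, 0.286 and 0.253. Unstimulated replicate 3 and stimulated replicate 4 correlated at 0.176, above the value for number 2. The main fit did not pair the samples, and the replicate number entered as a block only as an alternative.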

Additional observations from a re-analysis of the deposited data

Results flagged for a closer look

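In 9 of 206 sets of 4 values (103 named genes in each group, 4.37%), 1 sample lay outside the spread of the other 3 by Dixon's criterion, which chance exceeds in about 1 in 20 sets. In stimulated replicate 1, *Pik3ip1* was at 24.3 CPM (20.6 to 21.1 in the other 3), *Atf4* at 628 CPM (549.6 to 558), *Bcl2l11* at 101 CPM (87.4 to 89.8) and *Bcl2a1b* at 32.4 CPM (16.2 to 18.4). In unstimulated replicate 4, *Xcl1* was at 14.3 CPM (6.60 to 7.15), *Cd69* at 49.4 CPM (37.1 to 38.9), *Serpinb9* at 44.2 CPM (24.2 to 25.8) and *Sema7a* at 9.42 CPM (3.58 to 3.94). In stimulated replicate 4, *Bmf* was at 2.63 CPM (1.78 to 1.90). All 4 values of unstimulated replicate 4 lay toward the stimulated level.

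The response to beads differed with PGE2, by the edgeR interaction term over 16 samples, for 7 named genes. The difference in log2 fold change (with minus without PGE2) was −1.12 for *Tnfaip3*, −1.75 for *Pdcd1*, −0.45 for *Per1*, 1.53 for *Srm*, 1.204 for *Per2*, 1.25 for *Ifngr1* and 0.83 for *Klf2*. The calls for *Per2* and *Klf2* were lost with RLE scaling (edgeR adjusted p = 0.0530 and 0.0551).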

How the results depend on the processing

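The 3301 DEGs (1640 higher, 1661 lower) became 3289 with RLE factors (1734 and 1555), 3427 with upper-quartile factors (1422 and 2005, so 41.5% higher), 3664 with DESeq2 (1991 and 1673), 3973 without a filter, 2612 with at least 10 counts in every sample, 4212 with glmTreat, 3540 in a fit of all 16 samples, and 3188 to 3658 when 1 sample was left out. Upper-quartile factors moved the median log2 fold change of all genes by −0.096 and RLE factors by 0.035. Without the fold threshold there were 9440 (4496 and 4944). By limma on log2(FPKM + 1) there were 1605 (1032 and 573) and without a filter 1612 (1039 and 573), and on log2(FPKM + 0.1) the lower DEGs numbered 952. The replicate block gave 3317 (1651 and 1666). Shares over all genes are not given for the alternative fits of the difference with PGE2. The 7 named genes whose response differed with PGE2 became 17 with the block, 12 with DESeq2, 11 without a filter and 4 to 12 with 1 sample left out. The lowest count came without unstimulated replicate 2, stimulated replicate 1 or 3, unstimulated PGE2 replicate 3 or stimulated PGE2 replicate 1 or 2, and the highest without stimulated PGE2 replicate 4. In the response without PGE2, the block changed the call of 0 of the 103 named genes and moved no list count by over 1.5 times. For named genes, 1435 of 1440 alternative values kept direction and call, 5 lost the fold threshold (*Hk2*, *Slc38a9* and *Dbp*) and 0 reversed. Many named genes were chosen for large changes in these same samples, which favoured this in advance. Of 784 counts over gene lists, 763 stayed within 1.5 times. The causes were not tested. Below about 1 CPM, counts per sample limit precision.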

Other observations

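Genes that overlap the most strongly induced cytokine genes were read next to them, a choice made after the values were seen. *Adad1* (chromosome 3, 37063527 to 37121930, plus strand), known from male germ cells, overlaps the end of *Il2* on the other strand. It had 0 counts in all 4 unstimulated samples and 130, 83, 56 and 51 counts in stimulated replicates 1 to 4 (3.43, 3.01, 2.20 and 2.07 CPM), at least 109-fold higher against a floor of 3 counts over the group. *AC153498.1* (chromosome 10, 118441419 to 118444140, plus strand), within *Ifng* on the same strand, had 0.0431, 0.0985, 0.141 and 0.594 CPM without and 12.0, 21.2, 16.5 and 18.2 CPM with beads. *Gm20743* (chromosome 1, 164863133 to 164936775, plus strand) spans *Xcl1* on the other strand and had 0.431, 0.460, 0.509 and 0.951 CPM without and 20.4, 20.2, 7.96 and 9.40 CPM with beads. In *Gm20743* stimulated replicates 1 and 2 were the highest, as they were in *Xcl1*. Whether these counts came from the overlapping gene was not tested.

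Per gene length, the largest gains after *Gzmb*, *Ccl4*, *Xcl1* and *Ifng* were of *Eif5a*, the translation factor that carries hypusine, from 390 to 944 FPKM, and of *Tnfrsf9*, from 86.2 to 599 FPKM. The largest losses were of *Tcf7*, from 426 to 112 FPKM, *Ccr7*, from 520.5 to 224 FPKM, and *Ighm*, the immunoglobulin μ heavy chain gene, from 395 to 129 FPKM. *Cd79b*, another B cell gene, fell beside *Ighm*, while *Ms4a1* was seen mainly in replicate 3 of either group, at 0.820 and 0.902 CPM.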
